A study of Mus musculus with 11 samples.

Results

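The Hes and Hey genes were described by their Myc-tag CUT&RUN peaks in neural progenitors of the mouse cortex. The 8 genes, Hes1, Hes3, Hes5, Hes6, Hes7, Hey1, Hey2 and Heyl, were taken by name from 21883 protein-coding genes, and all peaks over each gene span plus 50 kb on both sides (the window) were counted. In CUT&RUN an antibody tethers a nuclease that cuts out the DNA around a bound protein. The antibody recognised the Myc tag on RARα, a nuclear receptor that binds DNA with a retinoid X receptor and switches genes in response to retinoic acid. The cells were cortical cells of E14 embryos, magnetically selected on Prom1, which neural progenitors carry on their surface. Both groups are labelled as Prom1+ neural progenitors of the cortex probed with a Myc-tag antibody, 3 libraries labelled control and 3 labelled Foxc1 mutant, and the series names Sox2, Notch and retinoic acid from the meninges as its subject. The labels do not give the Foxc1 allele, how the tagged receptor was introduced, the genotype of the controls beyond that word, or whether replicates came from separate embryos. Any p-value therefore measures only the spread between these libraries, which may be technical. The 5 isotype libraries were not analysed here, so no antibody background stands beside the values. Peak lists hold no expression, so the labelled cell type was not checked against marker genes.

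Hes and Hey proteins are basic helix-loop-helix repressors. When a Notch receptor is cleaved, its intracellular part joins the DNA-binding protein RBPJ and activates several of their genes, though not all. In the embryonic cortex Hes1 and Hes5 keep radial glia undifferentiated by repressing proneural genes, so Notch signalling holds neurogenesis back. Retinoic acid receptors bind direct repeats of a short core motif, and their classical targets include Rarb and Cyp26a1.

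The 6 lists differed widely in length, and this sets how many peaks any gene can have. Where values of the 3 controls or the 3 mutants follow each other, they are in the order of replicates 1, 2 and 3. The lists held 86446, 11869 and 30273 peaks in the 3 controls and 54112, 410562 and 513290 in the 3 mutants. A stretch of 100 kb therefore held on average 3.25, 0.446 and 1.14 peaks in the control and 2.03, 15.4 and 19.3 in the mutant libraries. Heights are given in steps, the smallest unit of signal in a library, and the median height over the whole lists was 10, 2 and 2 steps in the controls and 4, 4 and 4 steps in the mutants. Steps of different libraries are not the same amount of signal. Read numbers were not part of the files analysed here, so the depth is unknown and a window without a peak is not shown to be unbound.

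Promoter sequences are shown for Hes5 and Hey2, which held the most matches to the RBPJ core, for Hes6, which held a receptor motif, and for Pank4 and Per1, neighbours with peaks of 3 libraries on the promoter. RefSeq promoters (GRCm38.p6, the assembly behind mm10, 250 bases before to 50 after a transcription start) were used for Hes5, Hes6, Hes7 and Hey2, 5 promoters in all, 2 of them of Hes6. Promoters of Hes1, Hes3, Hey1 and Heyl were not analysed here. Capitals mark matches on either strand to TGGGAA, which is the core of RBPJ sites, and to 4 core motifs of retinoic acid receptors. The core motifs searched were AGGTCA, the consensus, then its variants AGTTCA as well as GGGTCA, and lastly the variant GGTTCA. Only exact matches counted, and a strand of minus means that the gene reads toward lower coordinates.
Hes5 promoter, chr4:154960673-154960972, plus strand: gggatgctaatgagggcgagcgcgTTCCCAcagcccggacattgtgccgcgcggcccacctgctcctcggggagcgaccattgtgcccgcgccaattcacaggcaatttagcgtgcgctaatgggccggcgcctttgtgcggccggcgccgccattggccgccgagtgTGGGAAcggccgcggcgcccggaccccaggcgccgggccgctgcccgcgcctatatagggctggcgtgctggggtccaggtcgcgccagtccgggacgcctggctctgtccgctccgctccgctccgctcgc
Hey2 promoter, chr10:30842734-30843033, minus strand: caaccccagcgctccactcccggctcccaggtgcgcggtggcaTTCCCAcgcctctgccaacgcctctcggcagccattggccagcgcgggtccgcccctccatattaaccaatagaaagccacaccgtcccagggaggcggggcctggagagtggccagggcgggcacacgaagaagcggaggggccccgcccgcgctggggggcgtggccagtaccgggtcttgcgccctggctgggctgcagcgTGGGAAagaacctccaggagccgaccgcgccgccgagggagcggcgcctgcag
Hes6 promoter, chr1:91413173-91413472, minus strand: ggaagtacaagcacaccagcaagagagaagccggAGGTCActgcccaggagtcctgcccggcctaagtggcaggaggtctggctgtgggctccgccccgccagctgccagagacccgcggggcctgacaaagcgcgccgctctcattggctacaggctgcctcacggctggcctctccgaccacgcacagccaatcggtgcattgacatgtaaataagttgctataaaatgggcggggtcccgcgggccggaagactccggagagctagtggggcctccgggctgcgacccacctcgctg
Pank4 promoter, beside Hes5, chr4:154963873-154964172, plus strand: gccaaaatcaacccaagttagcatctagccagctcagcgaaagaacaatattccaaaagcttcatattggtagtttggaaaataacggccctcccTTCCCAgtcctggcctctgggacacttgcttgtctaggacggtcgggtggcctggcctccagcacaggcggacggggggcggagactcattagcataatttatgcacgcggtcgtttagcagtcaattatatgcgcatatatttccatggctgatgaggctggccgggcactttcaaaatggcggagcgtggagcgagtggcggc
Per1 promoter, beside Hes7, chr11:69098699-69098998, plus strand: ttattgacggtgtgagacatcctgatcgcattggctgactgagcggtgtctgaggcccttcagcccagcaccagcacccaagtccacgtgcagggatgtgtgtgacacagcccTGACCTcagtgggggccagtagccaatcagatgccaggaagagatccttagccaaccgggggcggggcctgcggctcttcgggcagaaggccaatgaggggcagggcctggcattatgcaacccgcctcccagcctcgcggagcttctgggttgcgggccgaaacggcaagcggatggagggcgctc
The Hes5 and Hey2 promoters each held 2 matches to TGGGAA, one on each strand, and Hes7 held 1. Of 32851 promoters in the table, 25.6% held at least 1 match to it. Among the 5 member promoters only the Hes6 promoter shown here held a receptor core motif, AGGTCA, while 43.7% of all promoters held at least 1 of the 4 core motifs. No member promoter held 2 core motifs as a direct repeat spaced by 1, 2 or 5 bases, patterns found in 0.222%, 0.268% and 0.0974% of all promoters. The motifs CACNAG, the N-box bound by Hes proteins, and CACGTG, an E-box that Hey proteins can bind, were searched as well. CACNAG was in 2 of the 5 (42.5% of all promoters) and CACGTG in 0 of the 5 (7.15%). A match is a string of letters in the window, not a site of binding.

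None of these 5 promoters of Hes5, Hes6, Hes7 and Hey2 was overlapped by a peak in any of the 6 libraries. The count does not cover Hes1, whose gene end of lower coordinate lay under a peak of mutant replicate 3. Over all promoters in the table the share with a peak was 12.8%, 0.228% and 0.381% in the 3 controls and 2.09%, 14.6% and 29.3% in the 3 mutants. Beside these shares, 0 of 5 says nothing particular to these genes. The nearest peaks to the Hes5 promoter lay 2928 bp away in control replicate 1 and 1317, 2807 and 1460 bp away in the 3 mutants. The nearest to the Hey2 promoter was 808 bp away, in mutant replicate 3. The promoters of Pank4 and Per1 shown above, chosen for such peaks, were each overlapped in control replicate 1 and mutant replicates 2 and 3. Of 18 promoters of neighbours in the windows, 4, 0 and 0 were overlapped in the controls and 0, 3 and 2 in the mutants.

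Taken over the 8 windows, 849 kb in all, the genes carried somewhat fewer peaks than list length and width predict. The exception was mutant replicate 1, with about the expected number. The windows held 21, 1 and 7 peaks in the 3 controls, where 27.6, 3.79 and 9.66 were expected, and 17, 115 and 140 in the 3 mutants, where 17.3, 131 and 164 were expected. The ratio of observed to expected peaks, called the relative density here, was thus 0.762, 0.264 and 0.725 in the controls and 0.985, 0.878 and 0.855 in the mutants. The median relative density of the 8 genes was 0.815, 0 and 0.398 in the controls and 0.941, 0.899 and 0.898 in the mutants. Over all protein-coding genes, counted the same way, the median was 1.11, 0 and 0.813 in the controls and 0.942, 0.952 and 0.892 in the mutants. The members' median was thus below that of all genes in control replicates 1 and 3, equal to it at 0 in control replicate 2, and close to it in every mutant library. Peaks covered 5.39%, 0.0124% and 0.261% of the windows in the controls and 1.36%, 11.1% and 12.9% in the mutants, against 8.07%, 0.148% and 0.326% and 1.46%, 12.3% and 15.7% of the whole chromosomes.

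Having a peak in the window separated the libraries by the length of their lists. All 8 genes had at least 1 peak in control replicate 1 and in each mutant library, 1 gene (Hes1) had one in control replicate 2, and 4 (Hes1, Hes7, Hey2 and Heyl) in control replicate 3. The same call was met by 93.8%, 41.4% and 72.8% of all protein-coding genes in the 3 controls and by 89.2%, 97.2% and 96.9% in the 3 mutants. On the gene span itself, 1, 0 and 0 of the 8 members were hit in the controls and 2, 3 and 5 in the mutants. Over all genes that share was 56.7%, 13.5% and 25.2% in the controls and 38.6%, 77.3% and 80.3% in the mutants. Among the 10625 genes no longer than Heyl, the longest member at 16315 bp, it was 31.5%, 2.4% and 5.61% in the controls and 12.9%, 56.9% and 63% in the mutants. In the long lists a peak near one of these genes was therefore what most genes showed. The map of all peaks in the 8 windows shows the few peaks of the short lists beside the dense rows of mutant replicates 2 and 3.

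**Figure D1:**
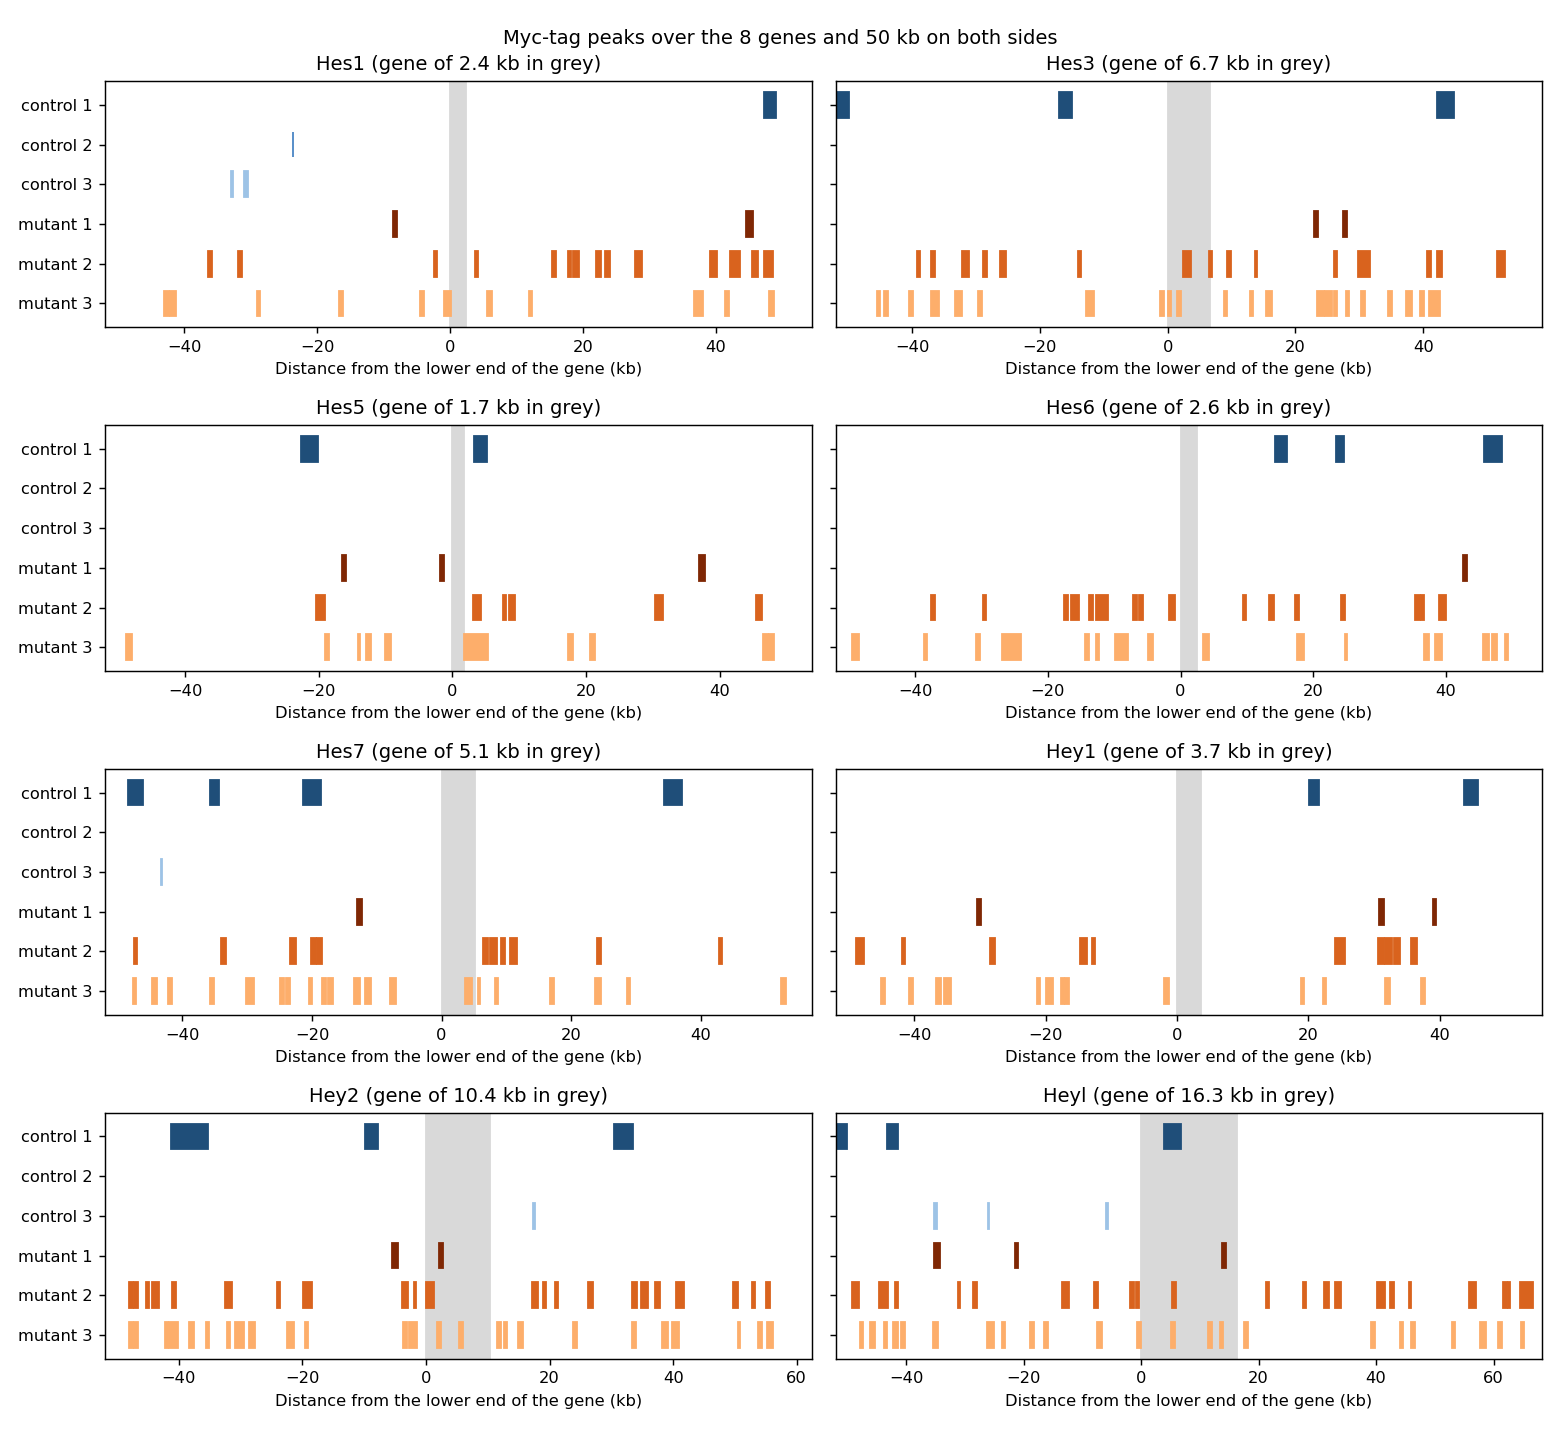
Each panel is the window of 1 gene, with distance in kb from its end of lower coordinate on the x axis and the 6 libraries as rows. Bars are peaks drawn to their width with a thin outline, so that peaks of about 0.1 kb remain visible, and grey marks the gene. Control replicate 2 has 1 bar in all 8 panels and mutant replicate 3 has 140.

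Hes1, the Notch target that holds back neuronal differentiation, lies alone in its window on chromosome 16 (30065357 to 30067796 in mm10), with no other protein-coding gene within 50 kb. Its window held 1, 1 and 2 peaks in the 3 controls (3.33, 0.457 and 1.17 expected) and 2, 14 and 11 in the 3 mutants (2.08, 15.8 and 19.8 expected). The values of the 2 genotypes overlapped: the highest relative densities were those of control replicates 2 and 3 (2.19 and 1.72), and the lowest was that of control replicate 1 (0.301). Of adjacent tiles of the same width along the chromosomes, 36.1% held at least 1 peak of control replicate 2, so the single peak behind the value of 2.19 is common. In mutant replicate 3, 89.4% of the tiles held at least the 11 peaks of the Hes1 window. The only peak touching Hes1 itself was one of mutant replicate 3, 1130 bp wide and 5 steps high, across its end of lower coordinate. At least 5 steps were reached by 40.8% of all peaks of that library. The Hes1 peaks of control replicates 1, 2 and 3 lay 44.8, 23.6 and 30.4 kb or more from the gene. The nearest peaks of mutant replicates 1 and 2 lay 7.95 and 1.25 kb away. Far from the gene, at 44.8 kb on the side of higher coordinates, control replicate 1 (12 steps), mutant replicate 2 (8 steps) and mutant replicate 3 (5 steps) shared a region. The peak of mutant replicate 2 there was among the 1.49% of its list with at least that height.

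Hes5, which acts with Hes1 in cortical radial glia, had a wide and tall peak right beside it in mutant replicate 3, which ran over the start of another gene. The Hes5 window (gene at 154960626 to 154962372 on chromosome 4) held 2, 0 and 0 peaks in the 3 controls (3.30, 0.454 and 1.16 expected) and 3, 6 and 10 in the 3 mutants (2.07, 15.7 and 19.6 expected). Mutant replicates 2 and 3 were sparse here, with relative densities of 0.382 and 0.510, and 93.6% and 90.9% of same-width tiles held at least as many of their peaks. Mutant replicate 1, at 1.45, was the only library above the expected number. The peak of mutant replicate 3 ran for 3510 bp from 154962433, just 60 bp past Hes5, to 154965942, and was 9 steps high. It ranked 168th by total signal among 513290 peaks, and 0.700% of that list reached its height. In the same place control replicate 1 had a peak of 1938 bp and 11 steps, and mutant replicate 2 one of 1098 bp and 4 steps. They began 1528 and 1407 bp past Hes5, and all 3 peaks overlapped the promoter of Pank4, a pantothenate kinase family gene 1750 bp beyond Hes5, whose sequence is given above. Neither Hes5 nor its promoter was touched by any of them. A height of 11 steps was ordinary in control replicate 1, where 39.0% of peaks reached it.

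Hes3 and Hes7 are members with roles outside or before cortical neurogenesis, Hes3 in the early neuroepithelium and Hes7 as the oscillating repressor of the segmentation clock. Both lie among many genes, with 6 and 5 other protein-coding genes in their windows. The Hes3 window on chromosome 4 held 3, 0 and 0 peaks in the controls (3.46, 0.476 and 1.21 expected) and 2, 15 and 22 in the 3 mutants (2.17, 16.5 and 20.6 expected). Every mutant library had a relative density above every control library, from 0.912 to 1.07 against 0 to 0.866, but the 2 zeros are those of control replicates 2 and 3, of which the first expects less than 1 peak. On Hes3 itself lay 2 peaks each of mutant replicates 2 and 3, all 4 or 5 steps high, and no peak of one overlapped a peak of the other. The Hes7 window on chromosome 11 held 4, 0 and 1 peaks in the controls (3.42, 0.469 and 1.20 expected) and 1, 11 and 20 in the mutants (2.14, 16.2 and 20.3 expected). Control replicate 1 had the highest relative density there (1.17), so the genotypes overlapped. Mutant replicate 3 alone had a peak on Hes7, of 5 steps, and 511 bp past the gene a narrow one of 332 bp and 8 steps. At least 8 steps were reached by 2.07% of that list. The regions of these windows shared by 3 libraries lay at neighbours: at Rpl22, a ribosomal protein gene (13, 5 and 6 steps in control replicate 1 and mutant replicates 2 and 3), at Tmem107, a ciliary gene (11, 4 and 4 steps), and at the promoter of the clock gene Per1 (13, 3 and 6 steps).

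Hes6 differs in role from the others, as it promotes neuronal differentiation and opposes Hes1. Its window on chromosome 1 held 3, 0 and 0 peaks in the controls (3.33, 0.457 and 1.17 expected) and 1, 16 and 16 in the 3 mutants (2.09, 15.8 and 19.8 expected). The relative density of control replicate 1 (0.901) lay between those of the mutant libraries (0.480, 1.01 and 0.809). No library had a peak on Hes6, and the closest lay 829 bp away in mutant replicate 2 and 878 bp away in mutant replicate 3. The 3 peaks of control replicate 1 all lay in or across the neighbouring clock gene Per2, whose nearer end lies 1938 bp beyond Hes6. One of them, 1281 bp wide and 20.8 kb from Hes6, reached 19 steps, the greatest height of that library in any of the 8 windows, and 0.490% of its list was as high. A peak of mutant replicate 2 (4 steps) overlapped it and in turn a peak of mutant replicate 3 (6 steps), which did not reach the control peak. On the other side, mutant replicate 3 had a peak of 2782 bp at Ilkap, 24.1 kb away, and one of 1914 bp 7.96 kb away. By total signal these stood in the top 0.192% and 0.794% of its list.

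Among the Hey genes, which act in vessels and heart as well as in the brain, Hey2 and Heyl were the members with the most peaks, and Hey1 was sparse. Hey1, on chromosome 3, had 2, 0 and 0 peaks in the controls (3.37, 0.462 and 1.18 expected) and 3, 10 and 13 in the mutants (against about 2.11, 16 and 20 expected). No library had a peak on Hey1, and the nearest, of 6 steps, lay 1195 bp away in mutant replicate 3. Its relative density of 0.625 and 0.650 in mutant replicates 2 and 3 was met or passed by 88.1% and 85.4% of same-width tiles by peak number.

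The Hey2 window on chromosome 10 held 3, 0 and 1 peaks in the controls (3.59, 0.492 and 1.26 expected) and 2, 22 and 25 in the mutants (2.25, 17.0 and 21.3 expected). The mutant values (0.891, 1.29 and 1.17) were all above the control values (0.836, 0 and 0.796), by a small margin between the nearest. In mutant replicate 2 the Hey2 window was denser than 85.7% of all gene windows, the highest standing of a member in that library, while 75.0% of same-width tiles held fewer peaks. On Hey2 lay peaks of mutant replicates 1 (3 steps), 2 (3 steps) and 3 (5 and 5 steps), and those of replicates 1 and 3 overlapped. The widest peak of any member window was in control replicate 1, 5942 bp at 35.3 kb from Hey2 inside Ncoa7, a nuclear receptor coactivator family gene, at 11 steps and in the top 0.608% of its list by total signal.

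Heyl, the longest of the 8, was the only member with a peak on the gene in both genotypes. Its window on chromosome 4 held 3, 0 and 3 peaks in the controls (3.78, 0.519 and 1.32 expected) and 3, 21 and 23 in the mutants (2.36, 17.9 and 22.4 expected). Control replicate 3 had the highest relative density (2.27) and control replicate 2 the lowest (0), so the genotypes overlapped. Within the gene, a region of 2894 bp from 123237483 to 123240376 held a peak of 9 steps in control replicate 1 and peaks of 4 steps in mutant replicate 2 and 5 steps in mutant replicate 3. These heights were common, with 73.4%, 70.3% and 40.8% of the 3 lists at least as high. A second region in Heyl was shared by mutant replicates 1 and 3 (3 and 5 steps).

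**Figure D2:**
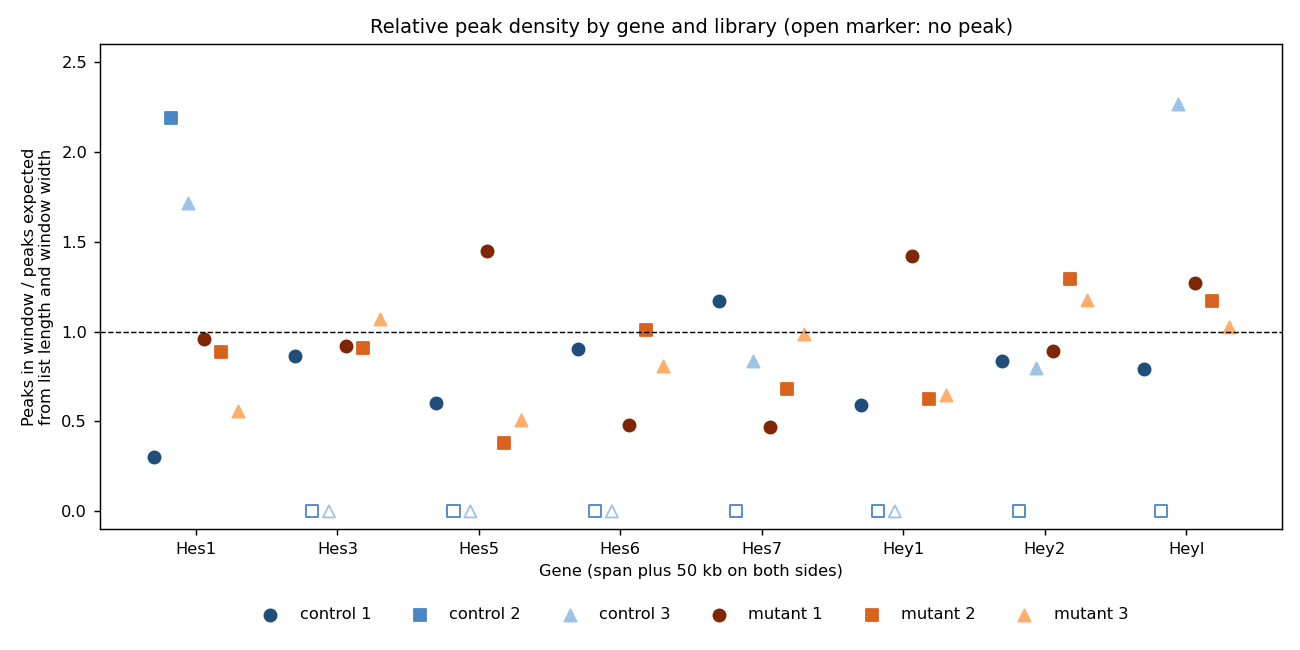
Relative density, the number of peaks in a window divided by the number expected from list length and window width, is on the y axis for the 8 genes on the x axis. Each point is 1 library, open where the window had no peak, and the dashed line marks the expected number. Control replicate 2 is at 0 for 7 genes and at 2.19 for Hes1, and no point lies above 2.27.

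The peaks in the 8 windows joined by overlap, chains included, into 234 regions. Peaks of a single library made 186 of them, those of 2 libraries 36 and those of 3 libraries 12, and none had peaks of 4 or more libraries. Regions of 3 or more libraries were 5.13% of those in the windows and 5.25% of 805693 regions in the whole genome. Regions of 2 or more libraries were 20.5% and 25.9%. Of the 12 regions, 11 joined control replicate 1 with mutant replicates 2 and 3, the libraries with the largest covered length. The remaining one, 34.2 kb from Heyl, joined control replicate 3 (2 steps) with mutant replicates 1 (3 steps) and 3 (4 steps). Heyl had 3 of the 12 regions, Hes5, Hes7 and Hey2 had 2 each, Hes1, Hes3 and Hes6 had 1 each, and Hey1 had none. Of the 12, 1 lay on a member gene, the one inside Heyl, 7 touched another protein-coding gene (Rpl22, Pank4, Per2, Tmem107, Per1, Ncoa7 or Hpcal4) and 4 touched none. The members fill a small part of their windows, at most the 16315 of 116315 bp of Heyl, so these counts show no avoidance of the members. The plot of heights in the shared regions sets these libraries side by side.

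**Figure D3:**
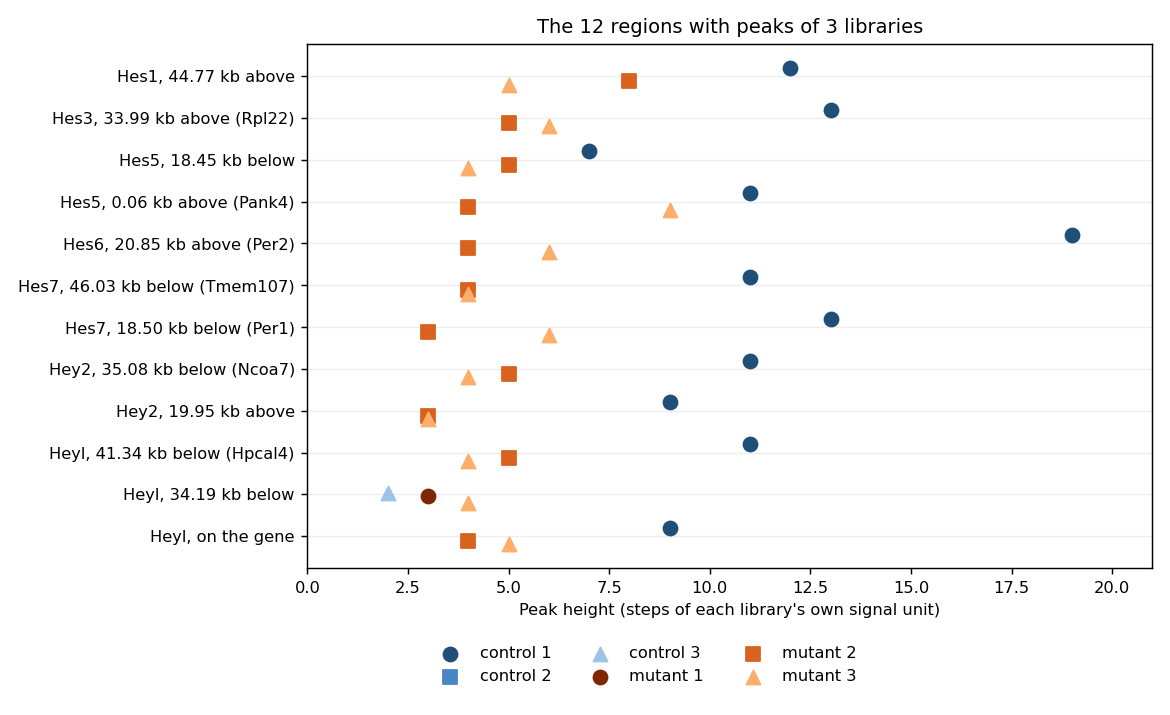
Rows are the 12 regions with peaks of 3 libraries, named by the member gene, the distance of the region from it toward lower (below) or higher (above) coordinates and any gene it touches. The x axis is peak height in steps of each library's own unit. Control replicate 2 has no peak in these regions, control replicate 1 reaches 19 steps at Per2, and mutant replicate 3 stands highest at Pank4, with 9 steps.

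With lists cut to equal length, the members had few peaks in either genotype. When each list was reduced to its 11869 peaks of highest total signal, 3.79 peaks were expected over the 8 windows and 2, 1 and 6 were found in the 3 controls and 2, 4 and 3 in the 3 mutants. The 6 peaks of control replicate 3 lay at Hes1 (2), Hes7, Hey2 and Heyl (2). The Pank4 peak beside Hes5 and the 2 peaks near Hes6 were those of mutant replicate 3. Hey1 had none in any library. In these lists 48%, 41.4% and 41.8% of all genes had a peak in the window in the controls and 43.6%, 37.4% and 34.5% in the mutants, and the number of members with one was 2, 1 and 4 in the controls and 2, 3 and 2 in the mutants.

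The comparison of genotypes, which asks whether RARα is found at Notch effectors differently when Foxc1 is mutated, gave no call for any member. Relative density was put on a log2 scale as log2 of observed plus 0.5 over expected plus 0.5 peaks. Limma was fitted over all 21883 genes. The added 0.5 can understate changes in windows with few peaks, and the value of an empty window falls as the list grows. At Hes3, 0 peaks gave −0.96 in control replicate 2 and −1.78 in control replicate 3. Differences at windows empty in these controls therefore depend in part on list length. Of the 8 genes, 6 had a higher mean in the mutants, as did 54.3% of all genes, and 2, Hes1 and Hes7, had a lower one. The adjusted p-values of limma ran from 0.836 to 0.978. The difference was 0.93 with a standard error of 0.69 for Hes3 and −0.31 with a standard error of 0.63 for Hes1, the ends of the range. Between them stood Hey1 at 0.83, Hey2 at 0.63, Hes6 at 0.58, Hes5 at 0.49, Heyl at 0.31 and Hes7 at −0.15, with standard errors of 0.57 to 0.78. The windows of Hes3, Hes5, Hes6 and Hey1 had no peak in control replicates 2 and 3, and their differences depended on the added value. With 1 in place of 0.5 they were 0.58, 0.13, 0.29 and 0.46 in that order. With 0.25 they were 1.38, 0.94, 0.99 and 1.30. Without control replicates 2 and 3 they were 0.14, 0.0028, −0.23 and 0.35. The median of the 8 differences was 0.53, and that of all genes was 0.07. Control and mutant libraries did not overlap at Hes3 and Hey2, higher in mutant in both, a pattern met by 5.75% of all genes in that direction and 5.33% in the other. The two-sided exact permutation test, which with 3 libraries against 3 cannot go below 0.1, gave p = 0.1 for both, and 0.895 after Benjamini-Hochberg adjustment over all genes. Limma called 0% of genes higher and 0% lower in the mutants at an adjusted p under 0.05, with 1189 genes at an unadjusted p under 0.05, and the exact permutation test, whose lowest p is above that threshold, called none. Without control replicate 1 limma called 185 genes, and without mutant replicates 1, 2 and 3 it called 15, 1 and 2, no member among them. Each of the 8 directions reversed under at least 1 alternative setting, and no member passed under any.

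**Figure D4:**
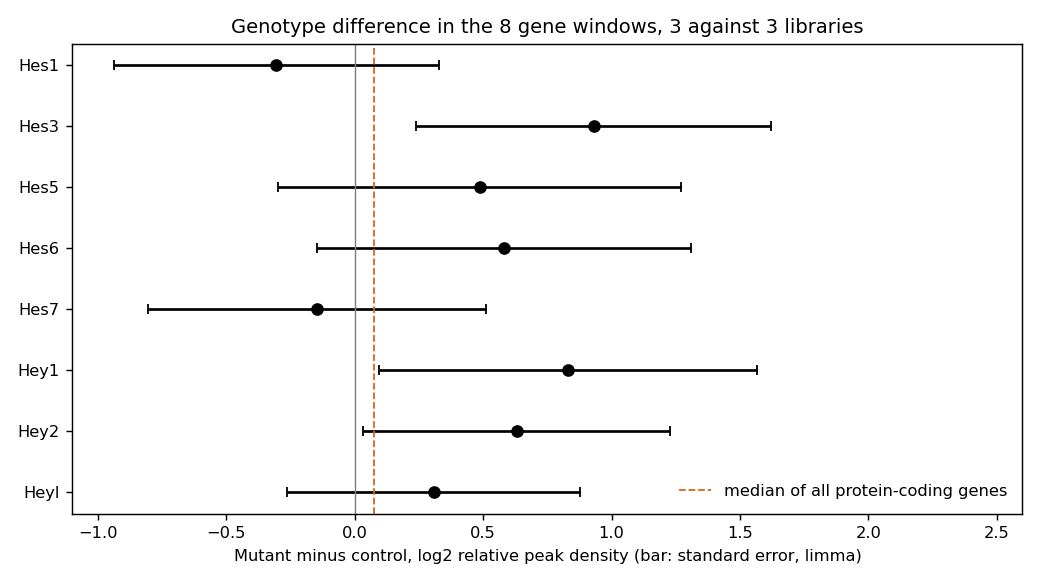
Points are the mutant minus control difference in log2 relative density for each gene, with bars of 1 standard error from limma (3 against 3 libraries). The dashed line is the median of all protein-coding genes, 0.07. Hes3 has the highest difference, 0.93, and Hes1 the lowest, −0.31.

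Summed over the 8 windows, the log2 relative density averaged −0.78 ± 0.64 (SD, n = 3) over the controls. Over the mutants it averaged −0.14 ± 0.11 (SD, n = 3), which is 0.63 higher. Since the genes were chosen with results of these data known, no test was made of this sum. The control mean was drawn down by control replicate 2, at −1.51 with its 1 peak, and without that library the difference was 0.27. It was 0.19 with a flank of 100 kb and 0.23 with equal-length lists by total signal, and with peaks of at least 4 steps alone it turned to −0.50. That threshold is set in steps, which differ in signal between libraries, and the median height was 10, 2 and 2 steps in the controls.

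The other genes of the pathway also gave no call between genotypes, and most of them had peaks where the lists were long. All 27 genes of the receptors, ligands and signalling machinery of Notch had a peak in their windows in control replicate 1 and in mutant replicates 2 and 3, and 10, 18 and 25 had one in control replicates 2 and 3 and mutant replicate 1. Of all genes 93.8%, 97.2% and 96.9% had one in the first 3 of these libraries and 41.4%, 72.8% and 89.2% in the others, so most genes showed the same. Their median relative density was 1.17, 0 and 0.602 in the controls and 0.909, 0.891 and 0.842 in the mutants, beside medians over all genes of 1.11, 0 and 0.813 and of 0.942, 0.952 and 0.892. Maml1, a coactivator of the Notch complex, had the highest mean rank among them, with 7, 0 and 3 peaks in the controls and 5, 28 and 31 in the mutants. The other Hes-related repressors Hes2, Helt, Bhlhe40 and Bhlhe41 had medians of 1.03, 0 and 0.410 in the controls and 1.18, 0.755 and 0.826 in the mutants. Of 11 classical retinoic acid targets, 11, 6 and 10 had a peak in the controls and all 11 in each mutant library, with median relative densities of 0.901, 0.597 and 1.05 and of 1.42, 0.787 and 0.910. The all-gene shares for the same call were 93.8%, 41.4% and 72.8% for the controls and 89.2%, 97.2% and 96.9% for the mutants, and the all-gene medians are those given for the Notch list. Tgm2, a transglutaminase gene induced by retinoic acid, had 5 peaks in control replicate 2 where its window gave a relative density of 8.62, the rest of its values being 0.711 and 2.71 in the controls and 1.89, 0.848 and 0.678 in the mutants. Limma called no gene of these 3 lists in either direction, with a lowest adjusted p of 0.707.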

How the data were processed

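CUT&RUN libraries of Myc-tagged RARα from E14 Prom1-enriched cortical cells were used, 3 control and 3 Foxc1 mutant, grouped and numbered by their titles. Per the labels' protocols, digitonin was at 0.05%. Per the submitters' processing notes, the authors called peaks with SEACR on mm10. Not given in the sources used here were version, settings, aligner, read filters, scaling and any use of the isotype libraries. The deposited list of a library gives the total signal and the max signal of each peak in the authors' unstated scale. Max signals below 100 steps were whole multiples of 1 step per library within 0.01.

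Only peaks of the standard chromosomes (1 to 19, X and Y) entered, which left out 0 or 1 peak per library. Gene spans came from RefSeq GRCm38.p6, and all 8 symbols matched. A peak counted from 1 bp of overlap. Expected peaks were list length times window width over the 2661 Mb spanned by the lists. Adjacent same-width tiles took the place of random windows, so nothing was drawn at random. Peak heights were described within a library, except that 1 alternative kept peaks of at least 4 steps in every library, although steps of different libraries are not the same amount of signal. Log2 relative densities were tested with limma 3.58.1 (R 4.3.3) with a trend, and with exact permutation tests. Python 3.11.15 was used for the rest. The members and gene lists were chosen with earlier results of these data known. Named genes were the 8 members, their neighbours where a described peak lies in or next to them, and up to 4 genes per list by mean rank of relative density; 1 further list is not reported here.

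On simulated peak counts with the real list lengths over 21883 windows, limma recovered 68 of 100 windows raised 4-fold and 5 of 100 lowered to 0.25, with 1 false call among 21683. A lower density in mutant libraries would therefore mostly go undetected. The changed windows were drawn only from those above a minimum mean relative density, so recovery in sparser windows was not measured. The simulated counts varied by counting noise alone, around the same relative density in all libraries apart from the planted changes. Any further spread between the real libraries was left out, so a higher density may also be recovered less often than this.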

Additional observations from a re-analysis of the deposited data

How the results depend on the processing

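No member window was called under any alternative, with a lowest adjusted p of 0.290 by limma (Hes3). The summed log2 difference of 0.63 became −0.34 with equal-length lists by max signal, −0.50 with peaks of at least 4 steps and 1.42 with a 5 kb flank. It was 0.19 with a 100 kb flank, 0.40 with each library centred on the median of all genes, 0.23 with equal-length lists by total signal and 0.24 without control replicates 2 and 3, and leaving out 1 library at a time gave 0.27 to 0.83. The mutant minus control number of members with a peak, 3.67, became 0 with equal-length lists by total signal, −0.33 by max signal and 0 without control replicates 2 and 3, and lay between 2 and 5.5 with 1 library left out. Limma called 0 genes in the full lists, 234 and 210 with equal-length lists by total and max signal, 4 with the 5 kb flank, 1 with a pseudocount of 0.25 and 0 to 185 with 1 library left out.

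Reversed differences were as follows. With peaks of at least 4 steps they were 0.17 for Hes1, −1.65 for Hes5, −0.55 for Hes6, −0.40 for Hey1 and −0.37 for Hey2. With the 5 kb flank they were 0.36 for Hes1, −0.26 for Hes5, −0.048 for Hes6, 0.41 for Hes7 and −0.87 for Hey1. With a 100 kb flank they were −0.56 for Hes5, −0.66 for Hes6 and 0.33 for Hes7. With equal-length lists by max signal they were −0.53 for Hes3 and −0.77 for Heyl, and by total signal −0.25 for Heyl. Covered length gave 0.11 for Hes1, and a pseudocount of 0.25 gave 0.0057 for Hes7. Without control replicates 2 and 3 Hes1 was at 1.01 and Hes6 at −0.23. With 1 library left out Hes1 lay between −0.96 and 0.038, Hes5 between −0.039 and 0.84, Hes7 between −0.47 and 0.11 and Heyl between −0.14 and 0.84. The cause was not tested.

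Libraries of the same replicate number did not deviate together (correlations of −0.16, −0.086 and −0.043 across genes, which are not independent replicates), so the numbers were not taken as pairs. With the replicate block limma called 7 genes, none a member. In control replicate 2, whose list is the shortest, every member window expected under 1 peak, and the depth is unknown.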
